A study of Mus musculus with 22 samples.

Results

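The 9 genes described here encode or mark the inhibitory and costimulatory receptors of T cells: *Pdcd1* (PD-1), *Ctla4*, *Lag3*, *Havcr2* (TIM-3), *Tigit*, *Icos*, *Tnfrsf4* (OX40), *Tnfrsf9* (4-1BB) and *Foxp3*. They were taken by gene symbol from 2 expression tables of 24353 genes each, and all 9 were present in both (in the files' capitals PDCD1, CTLA4, LAG3, HAVCR2, TIGIT, ICOS, TNFRSF4, TNFRSF9 and FOXP3). The series measured RNA from mammary tumours grown from EMT6 cells, a murine breast carcinoma line, after 200000 cells had been placed in both inguinal fat pads of wild-type BALB/c mice aged 5 to 6 weeks. Tumours were dissociated and divided with CD45 magnetic beads into a CD45-positive (leukocyte) and a CD45-negative (remaining tumour) fraction.

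The treated groups were JQ1, an inhibitor of BET bromodomain proteins, given daily by gavage at 50 mg/kg; JQ1 with an anti-PD-L1 antibody (clone 10F.9G2, 10 mg/kg); JQ1 with the microtubule-stabilising drug paclitaxel (10 mg/kg); and all 3 drugs. The antibody and paclitaxel were injected intraperitoneally 2 times a week, and the comparison group received vehicle. Every treated mouse thus received JQ1, so neither the antibody nor paclitaxel was tested without it. The CD45-positive fraction had 2 libraries in each of the 5 groups (10 libraries). The CD45-negative fraction had 2 libraries of JQ1, 2 of JQ1 with anti-PD-L1, 3 of JQ1 with paclitaxel, 3 of the 3-drug combination and 2 of vehicle (12 libraries). Within each of the JQ1, JQ1 with anti-PD-L1 and vehicle groups, both tumours carried 1 code in their titles, followed by R or L. The code was read here as a mouse and the letter as its right or left tumour, which the labels do not state. On that reading, drug and mouse cannot be told apart in these groups. The JQ1 with paclitaxel and 3-drug groups held tumours of different mouse codes.

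PD-1, CTLA-4, LAG-3, TIM-3 and TIGIT dampen signalling in activated T cells, whereas ICOS and the tumour necrosis factor receptors OX40 and 4-1BB add to the signal of the T cell receptor. *Foxp3* encodes the transcription factor that defines regulatory T cells, which also carry CTLA-4, ICOS and OX40. TIM-3 is not confined to T cells, since macrophages and dendritic cells express it, and its ligands include galectin-9.

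Only *Havcr2* and *Tnfrsf9* passed the filter on low values (1 FPKM reached in 2 libraries) in both fractions, so the promoter windows of these genes are shown, from 250 bases before to 50 bases after the annotated start (RefSeq, GRCm38.p6, plus strand, 5′ to 3′). Capitals mark the AP-1 motif TGANTCA, a loose form of the site of Fos and Jun factors in which N is any base. They also mark the PU.1 motif GAGGAAGT, the site of a myeloid and B cell factor. Both motifs were searched on both strands and chosen after the sequences were seen. The *Havcr2* window (chr11:46454681-46454980) held both, and of the 2 annotated *Tnfrsf9* starts the second (chr4:150927749-150928048) held an AP-1 motif and the first (chr4:150919905-150920204) neither. Over 32851 promoters of the same length, 7.81% held the AP-1 motif and 3.2% the PU.1 motif, and a match describes letters only.
Havcr2: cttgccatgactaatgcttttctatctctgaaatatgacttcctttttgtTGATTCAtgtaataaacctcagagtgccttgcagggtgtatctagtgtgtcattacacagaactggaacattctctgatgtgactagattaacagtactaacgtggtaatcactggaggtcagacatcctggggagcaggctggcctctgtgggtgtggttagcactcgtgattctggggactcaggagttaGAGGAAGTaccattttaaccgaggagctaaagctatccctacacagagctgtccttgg
Tnfrsf9 first start: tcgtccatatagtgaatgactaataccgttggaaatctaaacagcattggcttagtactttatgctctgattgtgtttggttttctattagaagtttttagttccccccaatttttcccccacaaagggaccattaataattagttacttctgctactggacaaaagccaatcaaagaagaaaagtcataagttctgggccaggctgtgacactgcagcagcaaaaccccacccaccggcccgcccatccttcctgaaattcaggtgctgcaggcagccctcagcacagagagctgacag
Tnfrsf9 second start: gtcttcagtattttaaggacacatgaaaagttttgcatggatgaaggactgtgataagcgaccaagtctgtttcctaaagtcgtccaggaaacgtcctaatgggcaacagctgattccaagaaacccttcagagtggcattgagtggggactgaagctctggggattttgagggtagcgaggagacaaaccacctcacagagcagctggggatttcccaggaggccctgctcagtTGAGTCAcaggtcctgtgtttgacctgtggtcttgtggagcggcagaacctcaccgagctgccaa

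Levels are given in FPKM (fragments normalised to transcript length and to the mapped fragments of the library), as deposited. Comparison between genes is approximate, since the length model used is not given. The fractions followed their labels on average, but separation was uneven between tumours. *Ptprc*, which encodes CD45, averaged 51.1 FPKM in the CD45-positive and 4.38 FPKM in the CD45-negative libraries of the 10 tumours that had both, and the summed level of 4 fibroblast genes was 24.4 to 183 FPKM in the CD45-positive and 949 to 2299 FPKM in the CD45-negative libraries. The *Ptprc* ratio, positive over negative, was 5.39 to 11.3 in tumours given anti-PD-L1 and 14.5 to 31.1 in the others. The T cell gene *Cd3e* was nearly equal in 3-drug replicate 2, at 3.48 FPKM in the positive and 3.46 FPKM in the negative library. In replicate 1 of JQ1 with anti-PD-L1 it was at 2.68 and 2.04 FPKM. Macrophage genes led the CD45-positive libraries, with 8 of them summing to 8619 to 15250 FPKM, most of it *Lyz2*. In contrast, 16 core T cell genes summed to 10.8 to 268 FPKM. The T cell content was uneven. The sum of *Cd3d*, *Cd3e* and *Cd3g*, subunits of the T cell receptor complex, was 65.6 and 22.8 FPKM in JQ1, 6.10 and 5.63 FPKM in JQ1 with anti-PD-L1, 8.40 and 4.21 FPKM in JQ1 with paclitaxel, 18.1 and 9.18 FPKM in the 3-drug group and 10.3 and 5.25 FPKM in vehicle. JQ1 replicate 1 stood far above the other 9 libraries. In such bulk samples, fewer cells of a type and less RNA per cell cannot be told apart.

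Of the 9 genes, 7 were higher in the CD45-positive library of most tumours with both fractions, and *Tnfrsf9* and *Tigit* were not. The ratio of the mean levels, positive over negative, was 15.2 for *Ctla4*, 14.7 for *Pdcd1*, 13.8 for *Icos*, 9.03 for *Havcr2*, 7.24 for *Tnfrsf4* and 4.25 for *Foxp3*, and each of these was higher in the CD45-positive library of 10 of 10 tumours, as was *Ptprc* with a ratio of 11.7. *Lag3* was higher in 6 of 10 tumours, from a mean of 0.105 FPKM in the positive and 0.0272 FPKM in the negative libraries. *Tigit* averaged 0.568 FPKM in the positive and 0.383 FPKM in the negative libraries and was higher in the positive one in 5 tumours. *Tnfrsf9* averaged 9.84 FPKM in the positive and 9.90 FPKM in the negative libraries and was higher in the positive one in 3 of 10 tumours. The tables were normalized separately, so these are levels side by side with no test.

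**Figure D1:**
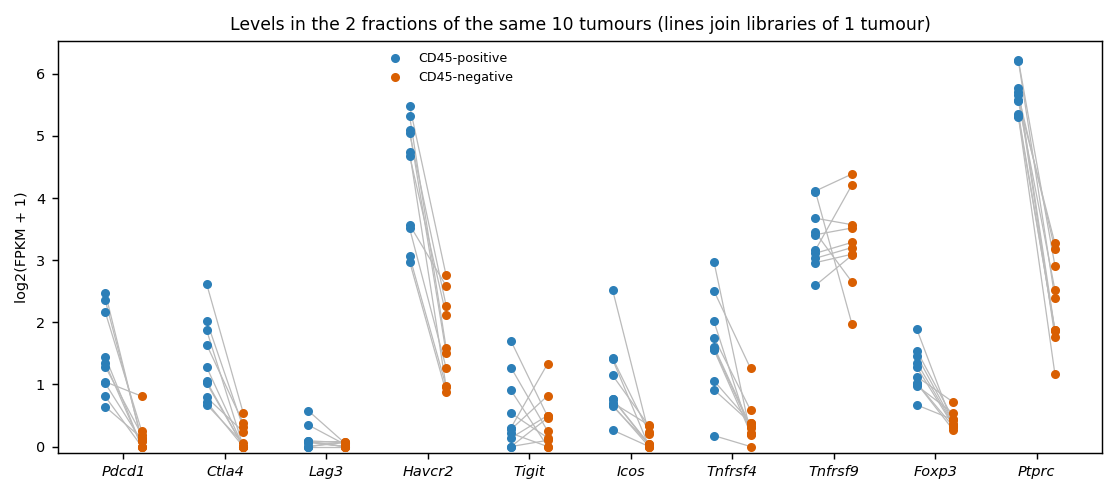
Level of each gene as log2(FPKM + 1) in the CD45-positive (blue, left) and CD45-negative (orange, right) library of the 10 tumours with both fractions; each point is a library and each line joins 1 tumour. Ptprc, the gene of CD45, is at the right. Tnfrsf9 was at the same mean level in both fractions (ratio 0.994), while Pdcd1, Ctla4, Icos and Havcr2 were higher in the CD45-positive library of 10 of 10 tumours.

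In the CD45-positive fraction, *Havcr2* had the highest median level of the 9 genes (25.2 FPKM), followed by *Tnfrsf9* (8.80 FPKM). *Tnfrsf4*, *Pdcd1*, *Foxp3*, *Ctla4* and *Icos* had medians of 2.02, 1.49, 1.30, 1.25 and 0.705 FPKM, and their ranges over libraries overlapped. *Tigit* (0.223 FPKM) and *Lag3* (0.0516 FPKM) were lowest. Each fraction was fitted on its own with limma on log2(FPKM + 1), with p-values adjusted over all genes tested. 8 of the 9 genes were tested in the CD45-positive fraction (all but *Lag3*), among 10340 genes, and 2 in the CD45-negative fraction (*Havcr2* and *Tnfrsf9*), among 10780. A call is an adjusted p under 0.05, and the 4 comparisons with vehicle in a fraction share its 2 vehicle libraries. Where a single treated group is said to lie above or below vehicle in either fraction, this compares 2 or 3 libraries with 2. Such small groups often separate without any real difference, and the share of all genes that did so is not given.

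No member was called in any of the 8 comparisons of the CD45-positive fraction. Over all genes tested there, 1.04% were called for JQ1 against vehicle, 0.029% for JQ1 with anti-PD-L1, 4.84% for JQ1 with paclitaxel, 0.135% for the 3-drug group, 0.822% for all treated groups, 0.832% for anti-PD-L1 added to JQ1, 0.0387% for paclitaxel added and none for the interaction of the 2 added drugs. At an unadjusted p under 0.05, limma gave 2 of the 8 members for JQ1 (19.7% of all genes), none for JQ1 with anti-PD-L1 (7.11%), 1 for JQ1 with paclitaxel (21.3%), 1 for the 3-drug group (8.73%), 3 for all treated groups (16%), 1 for anti-PD-L1 added (18.7%), none for paclitaxel added (9.45%) and 6 for the interaction (10.3%).

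**Figure D2:**
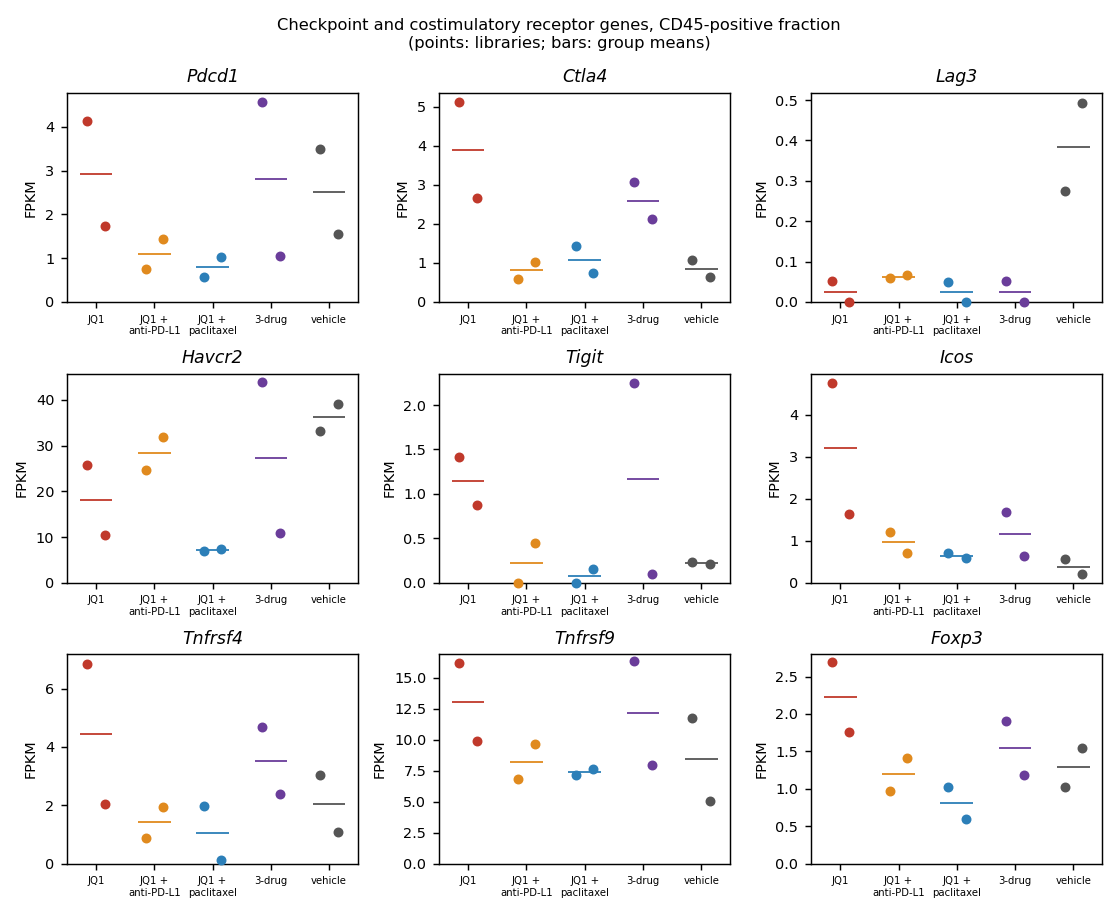
FPKM of the 9 genes in the CD45-positive fraction, with 1 panel per gene, points for libraries and bars for group means (2 libraries per group). Lag3 is highest in the vehicle libraries, Havcr2 lowest in the JQ1 with paclitaxel libraries (6.87 and 7.35 FPKM), and replicate 1 of JQ1 and of the 3-drug group is the higher library of its group in all 9 panels.

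Among the inhibitory receptors, *Lag3*, whose protein binds MHC class II, was nearly absent from treated CD45-positive libraries. It measured 0.0514 and 0 FPKM in JQ1, 0.0600 and 0.0660 FPKM in JQ1 with anti-PD-L1, 0.0490 and 0 FPKM in JQ1 with paclitaxel, 0.0517 and 0 FPKM in the 3-drug group and 0.274 and 0.494 FPKM in vehicle. Every treated library lay below both vehicle libraries, as did 7.19% of the genes tested. The steps between its FPKM values correspond to 0 to 2 reads in each treated library and to 8 and 16 reads in the vehicle libraries, so the level rests on few reads. *Lag3* missed the filter of 1 FPKM in 2 libraries. With no filter, the difference between all treated groups and vehicle was -0.42 ± 0.06 on the log2 scale (SE, adjusted p = 0.04), and with a filter of 0.1 FPKM it was the same size with an adjusted p of 0.0564.

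*Pdcd1*, which encodes the receptor of PD-L1, had wide ranges within groups. It measured 4.12 and 1.73 FPKM in JQ1, 0.749 and 1.44 FPKM in JQ1 with anti-PD-L1, 0.561 and 1.03 FPKM in JQ1 with paclitaxel, 4.57 and 1.06 FPKM in the 3-drug group and 3.49 and 1.54 FPKM in vehicle. The libraries of both groups that received 1 drug beside JQ1 lay below both vehicle libraries, and the other 2 treated groups overlapped with vehicle. The step between FPKM values puts *Pdcd1* at 11 to 170 reads per CD45-positive library.

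*Ctla4*, which competes with the costimulatory receptor CD28 for CD80 and CD86, was highest in JQ1. It measured 5.13 and 2.66 FPKM in JQ1, 0.598 and 1.03 FPKM in JQ1 with anti-PD-L1, 1.42 and 0.731 FPKM in JQ1 with paclitaxel, 3.07 and 2.12 FPKM in the 3-drug group and 1.07 and 0.641 FPKM in vehicle. JQ1 and the 3-drug group lay above vehicle without overlap. The fitted difference was 1.36 ± 0.32 for JQ1 (adjusted p = 0.0797), 0.95 ± 0.32 for the 3-drug group (adjusted p = 0.459) and 0.61 ± 0.25 over all treated groups (adjusted p = 0.282), none of them a call.

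*Tigit*, an inhibitory receptor for the nectin family member CD155, measured 1.41 and 0.870 FPKM in JQ1, 0 and 0.451 FPKM in JQ1 with anti-PD-L1, 0 and 0.160 FPKM in JQ1 with paclitaxel, 2.24 and 0.101 FPKM in the 3-drug group and 0.235 and 0.212 FPKM in vehicle. The JQ1 libraries lay above and the JQ1 with paclitaxel libraries below both vehicle libraries, and the 3-drug libraries held both the highest value and one of the lower ones.

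*Havcr2* was lowest in JQ1 with paclitaxel. It measured 25.7 and 10.4 FPKM in JQ1, 24.7 and 31.9 FPKM in JQ1 with anti-PD-L1, 6.87 and 7.35 FPKM in JQ1 with paclitaxel, 43.9 and 10.9 FPKM in the 3-drug group and 33.3 and 39.0 FPKM in vehicle. All treated libraries but 3-drug replicate 1 were below both vehicle libraries. The difference from vehicle was -2.19 ± 0.57 for JQ1 with paclitaxel (adjusted p = 0.0662) and -1.08 ± 0.45 over all treated groups (adjusted p = 0.289), and anti-PD-L1 added to JQ1 gave 1.12 ± 0.40 (adjusted p = 0.194). The JQ1 with paclitaxel difference was called under 6 of its alternatives, among them the one with the level of the *Cd3* genes as a covariate (-2.04, adjusted p = 0.0305), and its adjusted p ran from 0.0151 to 0.755 over all of them.

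Of 8 macrophage genes tested in the same comparison, 1 was called, *Fcgr1*, a high-affinity receptor for IgG, which fell in JQ1 with paclitaxel (-2.12, adjusted p = 0.0469). The median over the 8 was -0.53, against -0.09 over all genes tested, of which 4.84% were called. At an unadjusted p under 0.05 limma gave 5 of the 8 (21.3% of all genes). Their summed level was 10960 to 14990 FPKM in JQ1 with paclitaxel and 9276 to 10920 FPKM in vehicle. Most of that sum was *Lyz2*, with a mean of 10720 of 11830 FPKM over the CD45-positive libraries. The sum of *Csf1r*, *Adgre1* and *Cd68* was 772.9 and 566.5 FPKM in JQ1 with paclitaxel and 1010 and 1191 FPKM in vehicle. Relative to the summed level of *Csf1r*, *Adgre1* and *Cd68*, *Havcr2* stood at 3.74 and 1.58% in JQ1, 2.56 and 2.89% in JQ1 with anti-PD-L1, 0.889 and 1.30% in JQ1 with paclitaxel, 4.43 and 1.29% in the 3-drug group and 3.29 and 3.28% in vehicle. JQ1 with paclitaxel therefore lay below vehicle on this scale as well. The part of macrophage content in the *Havcr2* level was not tested.

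Of the costimulatory receptors, *Icos*, a CD28 relative carried by activated T cells, was above vehicle in every treated library, as were 2.89% of the genes tested. It measured 4.76 and 1.65 FPKM in JQ1, 1.22 and 0.709 FPKM in JQ1 with anti-PD-L1, 0.702 and 0.589 FPKM in JQ1 with paclitaxel, 1.68 and 0.633 FPKM in the 3-drug group and 0.571 and 0.202 FPKM in vehicle. The lowest treated library (0.589) and the higher vehicle library (0.571) nearly touched, at 14 and 28 reads by the step in their values. The difference was 1.51 ± 0.39 for JQ1 (adjusted p = 0.093) and 0.72 ± 0.31 over all treated groups (adjusted p = 0.294).

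*Tnfrsf4*, which encodes OX40 and is carried by activated and regulatory T cells, measured 6.84 and 2.05 FPKM in JQ1, 0.886 and 1.95 FPKM in JQ1 with anti-PD-L1, 1.98 and 0.130 FPKM in JQ1 with paclitaxel, 4.67 and 2.38 FPKM in the 3-drug group and 3.04 and 1.08 FPKM in vehicle. *Tnfrsf9*, a receptor induced on activated T cells and known on other leukocytes too, measured 16.2 and 9.91 FPKM in JQ1, 6.79 and 9.63 FPKM in JQ1 with anti-PD-L1, 7.17 and 7.64 FPKM in JQ1 with paclitaxel, 16.3 and 7.97 FPKM in the 3-drug group and 11.8 and 5.04 FPKM in vehicle. *Foxp3* measured 2.69 and 1.75 FPKM in JQ1, 0.972 and 1.42 FPKM in JQ1 with anti-PD-L1, 1.03 and 0.590 FPKM in JQ1 with paclitaxel, 1.91 and 1.18 FPKM in the 3-drug group and 1.02 and 1.55 FPKM in vehicle. For these genes, *Foxp3* in JQ1 was the 1 treated group that did not overlap with vehicle, lying above it, and no difference from vehicle had an unadjusted p under 0.05. In the CD45-positive fraction, the 50 fits of the 8 members that are not given singly ranged from -1.08 to 1.16, with a lowest adjusted p of 0.334.

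*Havcr2* followed T cell content least, and the order of the other members depended on the measure. Over the 10 CD45-positive libraries, Pearson's correlation of log2(FPKM + 1) with the mean of the *Cd3* genes was 0.93 for *Ctla4* and *Icos*, 0.84 for *Foxp3*, 0.82 for *Tnfrsf4*, 0.76 for *Tnfrsf9*, 0.74 for *Tigit*, 0.67 for *Pdcd1* and 0.15 for *Havcr2*, a description of points that share library, depth and group. Spearman's rank correlation, which gives an outlying library less weight, was 0.89 for *Tnfrsf4*, 0.87 for *Ctla4*, 0.77 for *Tnfrsf9* and 0.67 for *Icos*. It was 0.65 for *Foxp3* and *Pdcd1*, 0.58 for *Tigit* and 0.13 for *Havcr2*. With the *Cd3* level as a covariate, an alternative chosen after the data were seen, the JQ1 difference was 0.36 for *Ctla4* (adjusted p = 0.652) and 0.13 for *Icos* (adjusted p = 0.882). Without JQ1 replicate 1, the T cell-rich library, these differences were 0.99 for *Ctla4* (adjusted p = 0.226) and 0.95 for *Icos* (adjusted p = 0.252). B cell genes were high in the JQ1 libraries too. The summed level of 4 of them was 146 to 161 FPKM in JQ1 and 8.42 to 9.90 FPKM in vehicle (median difference 2.99, 4 of 4 with an unadjusted p under 0.05, none called), and *Ccr7*, a homing receptor of lymphocytes and dendritic cells, rose (2.76, adjusted p = 0.0401). The part of B cell and T cell content in the *Ctla4* and *Icos* levels was not tested beyond the covariate. Over all alternatives the adjusted p ran from 0.0561 to 0.901 for *Ctla4* and from 0.0417 to 0.901 for *Icos*.

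Expressed as a percentage of the summed *Cd3* level, *Pdcd1* was lower in each treated library (6.28 to 25.6%) than in vehicle (29.4 to 34.1%). *Lag3* was also lower in each treated library (0 to 1.17%) than in vehicle (2.67 to 9.40%), and *Icos* was higher in each (6.89 to 19.9%) than in vehicle (3.85 to 5.57%). *Ctla4* overlapped, at 7.82 to 23.1% in treated libraries and 10.4 to 12.2% in vehicle. *Tnfrsf9* was lowest in JQ1, at 24.7 and 43.4%, within a span of 24.7 to 182% over all 10 libraries. The ratio of the treated to the vehicle mean was 0.472 for *Pdcd1*, 0.0643 for *Lag3* and 2.27 for *Icos*, and with *Cd2*, *Cd5* and *Lck* as the denominator it was 0.541, 0.071 and 2.45. On that denominator only *Lag3* of these 3 stayed separate (0 to 0.887% in treated libraries and 3.20 to 5.00% in vehicle), while *Pdcd1* overlapped (4.49 to 45.0% in treated libraries and 15.6 to 40.9% in vehicle), as did *Icos* (5.33 to 25.8% in treated libraries and 2.05 to 6.68% in vehicle). No test was made on these percentages, and the portion of all genes that would separate on either denominator is not given. The *Cd3* sum was 65.6 and 22.8 FPKM in JQ1 and 10.3 and 5.25 FPKM in vehicle. A gene that did not follow it would be lower on this scale in JQ1.

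**Figure D3:**
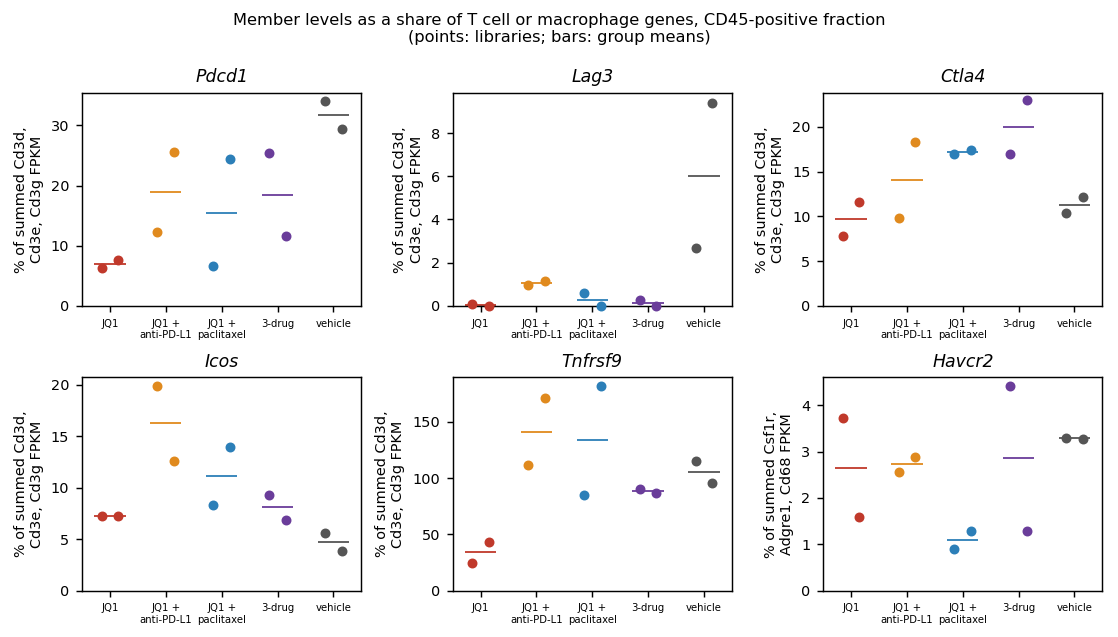
Pdcd1, Lag3, Ctla4, Icos and Tnfrsf9 as a percentage of the summed FPKM of Cd3d, Cd3e and Cd3g, and Havcr2 as a percentage of the summed FPKM of Csf1r, Adgre1 and Cd68, in the CD45-positive libraries (points) with group means (bars). Pdcd1 and Lag3 were lower and Icos higher in all 8 treated libraries than in the 2 vehicle libraries on this denominator (for Pdcd1 and Icos not with Cd2, Cd5 and Lck), and Havcr2 was at 0.889 and 1.30% in JQ1 with paclitaxel. The portion of all genes that would separate in this way is not given.

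The interaction compares the effect of adding anti-PD-L1 in the presence of paclitaxel with its effect in the absence of paclitaxel. It was positive at an unadjusted p under 0.05 for *Ctla4* (2.19 ± 0.45, adjusted p = 0.223), *Tnfrsf4* (2.31 ± 0.85, adjusted p = 0.433), *Pdcd1* (1.79 ± 0.72, adjusted p = 0.45), *Tigit* (1.63 ± 0.62, adjusted p = 0.437), *Icos* (1.35 ± 0.55, adjusted p = 0.45) and *Foxp3* (1.04 ± 0.38, adjusted p = 0.433), none of them a call. The median over all genes tested was 0.16, over the 8 members 1.49 and over 15 core T cell genes 2.42, of which 14 had an unadjusted p under 0.05 and none was called. In each of these 6 genes, and in the summed *Cd3* level, the means of JQ1 and of the 3-drug group lay above the means of both groups with 1 drug beside JQ1. The 6 genes were picked by their positive interaction, which favours this pattern, so it adds no separate evidence. The share of all genes with this pattern is not given. Without JQ1 replicate 1 it was 1.82 for *Ctla4*, 1.62 for *Tnfrsf4*, 1.33 for *Pdcd1*, 0.82 for *Foxp3* and 0.79 for *Icos*, and *Tigit* no longer passed the filter. With the *Cd3* level as a covariate it was -0.35 for *Pdcd1*, -0.67 for *Icos* and -0.81 for *Tnfrsf4*, and 0.72 for *Ctla4*, 0.30 for *Tigit* and 0.27 for *Foxp3*.

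In the CD45-negative fraction, *Tnfrsf9* and *Havcr2* were the members with levels that could be tested, and both rose with anti-PD-L1 added to JQ1. The other 7 genes were at or below 1.52 FPKM in all 12 libraries. Calls among the 2 tested members numbered 1 for JQ1 against vehicle, lower (14.8% of all genes tested were called, 9.68% lower), 2 for anti-PD-L1 added, both higher (25% called, 14% higher), and 1 for paclitaxel added, higher (3.56% called, 2.19% higher). Each of these also had an unadjusted p under 0.05, as did 30.9%, 38.4% and 20.4% of all genes in these comparisons. There was none for JQ1 with anti-PD-L1 (0.25%), JQ1 with paclitaxel (17.6%), the 3-drug group (1.63%), all treated groups (7.37%) or the interaction (0.00928%). Unadjusted p-values under 0.05 in those 5 comparisons numbered 1, 1, 2, 0 and 0 of the 2 members (14.4%, 32.2%, 19.6%, 25.5% and 7.15% of all genes tested).

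**Figure D4:**
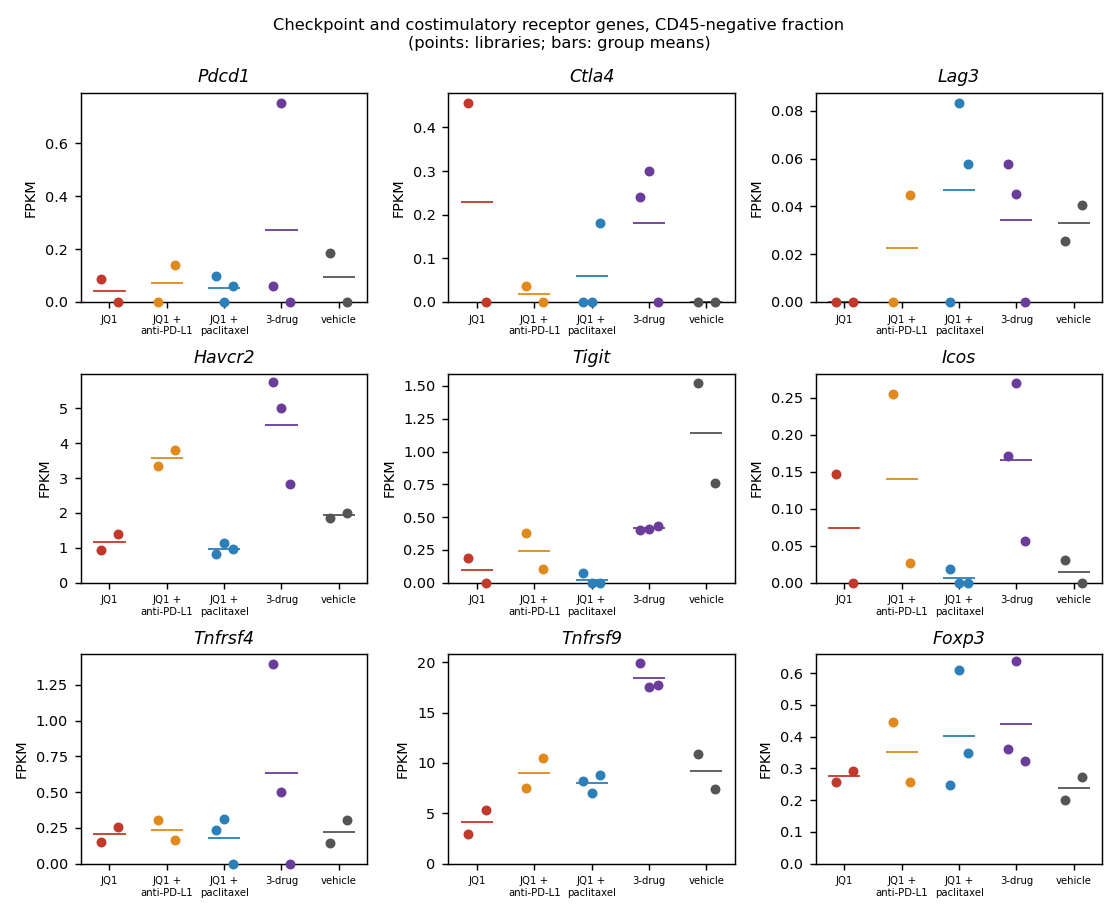
FPKM of the 9 genes in the CD45-negative fraction, with 1 panel per gene, points for libraries and bars for group means (3 libraries in JQ1 with paclitaxel and in the 3-drug group, 2 in the others). Tnfrsf9 was at 17.6 to 19.9 FPKM in the 3-drug libraries, above the other 9, Havcr2 was above vehicle in both groups with anti-PD-L1, and Tigit was highest in vehicle.

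*Tnfrsf9* measured 2.92 and 5.27 FPKM in JQ1, 7.55 and 10.5 FPKM in JQ1 with anti-PD-L1, 8.21, 7.02 and 8.76 FPKM in JQ1 with paclitaxel, 19.9, 17.6 and 17.7 FPKM in the 3-drug group and 10.9 and 7.46 FPKM in vehicle. The 3-drug libraries were the 3 highest and the JQ1 libraries the 2 lowest of the 12. *Tnfrsf9* fell in JQ1 relative to vehicle (-1.02 ± 0.24, adjusted p = 0.0172). It rose with anti-PD-L1 added (1.06 ± 0.16, adjusted p = 0.000754) and with paclitaxel added (0.91 ± 0.16, adjusted p = 0.0135), with overlap between libraries in each of these contrasts. The 3-drug group was above vehicle without overlap by 0.95 ± 0.22 (adjusted p = 0.0544), which is not a call. The interaction was 0.11 ± 0.32 (adjusted p = 0.97, 95% interval -0.57 to 0.80).

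Of these, the JQ1 difference depended on single libraries, being -0.77 without vehicle replicate 1 (adjusted p = 0.127) and -0.68 without JQ1 replicate 1 (adjusted p = 0.168). The paclitaxel difference was 0.74 without JQ1 replicate 1 (adjusted p = 0.0617) and 0.81 without replicate 1 of JQ1 with anti-PD-L1 (adjusted p = 0.0926). Over all alternatives the adjusted p ran from 0.0128 to 0.203 for JQ1 and from 0.0123 to 0.101 for paclitaxel. In the same fraction *Tnfsf9*, the ligand of 4-1BB, ran from 15.6 to 52.4 FPKM, and in the CD45-positive fraction it ran from 107 to 246 FPKM.

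*Havcr2* measured 0.948 and 1.41 FPKM in JQ1, 3.33 and 3.81 FPKM in JQ1 with anti-PD-L1, 0.838, 1.14 and 0.956 FPKM in JQ1 with paclitaxel, 5.75, 5.01 and 2.83 FPKM in the 3-drug group and 1.85 and 2.01 FPKM in vehicle. Groups with anti-PD-L1 lay above vehicle and those without it below, with no overlap. The share of all genes that separated in this way is not given. *Havcr2* rose with anti-PD-L1 added to JQ1 (1.26 ± 0.16, adjusted p = 0.000325). Against vehicle the differences were 0.88 ± 0.23 for the 3-drug group (adjusted p = 0.0695), 0.64 ± 0.25 for JQ1 with anti-PD-L1 (adjusted p = 0.266) and -0.57 ± 0.23 for JQ1 with paclitaxel (adjusted p = 0.107), none of them a call. The 8 remaining fits of *Havcr2* and *Tnfrsf9* in this fraction ranged from -0.43 to 0.37, with a lowest adjusted p of 0.257.

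Leukocyte genes in the CD45-negative libraries were higher at the median with anti-PD-L1 added, though libraries with and without it overlapped. The median difference was 0.61 over 6 pan-leukocyte genes and 0.54 over 8 macrophage genes, against 0.03 over all genes tested. At an unadjusted p under 0.05 limma gave 4 of the 6 and 4 of the 8 (38.4% of all genes). *Ptprc* measured 8.05 and 4.75 FPKM in JQ1 with anti-PD-L1 and 6.53, 8.65 and 3.29 FPKM in the 3-drug group, against 4.24 and 2.41 FPKM in JQ1 and 2.67, 7.34 and 2.63 FPKM in JQ1 with paclitaxel. With anti-PD-L1 added, 2 of 8 macrophage genes rose (*Cd68* by 0.93, adjusted p = 0.0114, and *Fcgr1* by 1.33, adjusted p = 0.00256), as did 1 of 6 pan-leukocyte genes (*Cd52* by 1.13, adjusted p = 0.0139), where 14% of all genes tested rose. The summed level of the 8 macrophage genes was 1543 to 2230 FPKM in JQ1 with anti-PD-L1 and 787 to 1185 FPKM in the 3-drug group, against 790 to 979 FPKM in JQ1 and 778 to 2396 FPKM in JQ1 with paclitaxel. Most of this sum was *Lyz2*, with a mean of 1044 of 1160 FPKM over the CD45-negative libraries, so it says little about the other macrophage genes. With the level of 6 leukocyte genes as a covariate, chosen after the data were seen, the anti-PD-L1 difference was 1.12 for *Havcr2* (adjusted p = 0.00322) and 1.25 for *Tnfrsf9* (adjusted p = 0.00132). Over all alternatives the adjusted p ran from 0.00013 to 0.0177 for *Havcr2* and from 0.000688 to 0.00968 for *Tnfrsf9*. The part of leukocyte content in the *Havcr2* and *Tnfrsf9* levels was not tested beyond the covariate.

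**Figure D5:**
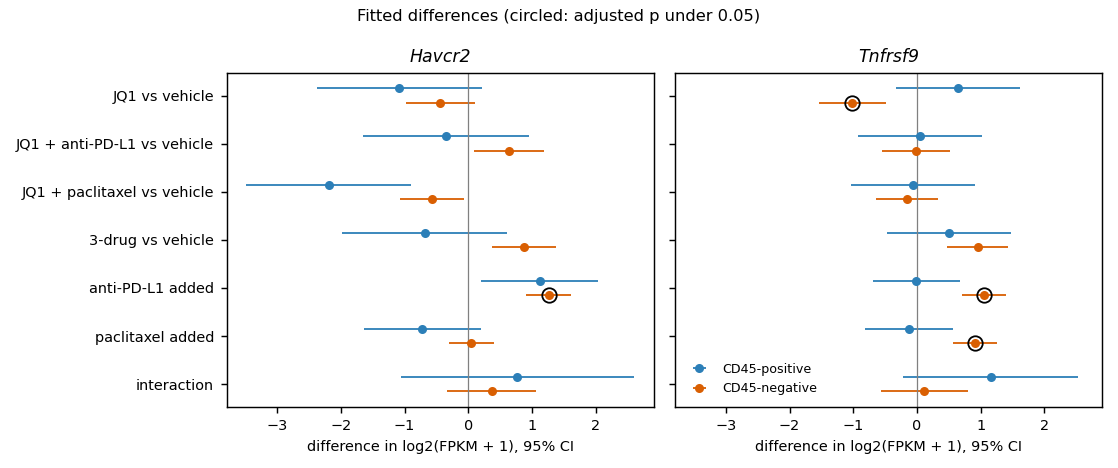
Fitted differences in log2(FPKM + 1) of Havcr2 and Tnfrsf9 with 95% confidence intervals in 7 comparisons, with CD45-positive in blue and CD45-negative in orange, and circles around values with an adjusted p under 0.05. All 4 circled values were in the CD45-negative fraction, with anti-PD-L1 added at 1.26 for Havcr2 and 1.06 for Tnfrsf9.

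*Tigit* in the CD45-negative fraction measured 0.189 and 0 FPKM in JQ1, 0.376 and 0.103 FPKM in JQ1 with anti-PD-L1, 0.0720, 0 and 0 FPKM in JQ1 with paclitaxel, 0.399, 0.414 and 0.433 FPKM in the 3-drug group and 1.52 and 0.761 FPKM in vehicle. Both vehicle libraries lay above all 10 treated ones, as they did for 8.33% of the genes tested. It missed the filter, and without one the difference over all treated groups was -0.83 ± 0.13 (adjusted p = 0.0128), with -0.95 ± 0.16 for JQ1 (adjusted p = 0.0131), -1.04 ± 0.15 for JQ1 with paclitaxel (adjusted p = 0.00477), -0.77 ± 0.16 for JQ1 with anti-PD-L1 (adjusted p = 0.0976) and -0.57 ± 0.15 for the 3-drug group (adjusted p = 0.13). *Cd3e* had its highest level, 3.46 FPKM, in 3-drug replicate 2, and was at 0.294 and 0.0591 FPKM in vehicle.

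*Foxp3* had a value above 0 in each of the 12 CD45-negative libraries, at 0.200 to 0.638 FPKM, or 6 to 27 reads by the step in its values. *Pdcd1* was highest in 3-drug replicate 2 (0.753 FPKM, 16 reads), the library with the highest *Cd3e*, and at most 0.186 FPKM in the others. *Ctla4* was at 0 to 0.457 FPKM, *Icos* at 0 to 0.269 FPKM, *Lag3* at 0 to 0.0835 FPKM and *Tnfrsf4* at 0 to 1.39 FPKM. *Ctla4* was listed at 0 in 7 libraries, *Pdcd1* and *Lag3* in 5, *Icos* in 4 and *Tnfrsf4* in 2.

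Of 13 genes for ligands of these receptors, 8 were tested in the CD45-negative and 9 in the CD45-positive fraction. With anti-PD-L1 added, 4 of the 8 rose in the CD45-negative fraction and none fell: *Cd86*, a ligand of CTLA-4 and CD28 (0.89, adjusted p = 0.0239), *Lgals9*, galectin-9 (0.38, adjusted p = 0.0114), *Pvrl2*, nectin-2 (0.60, adjusted p = 0.0203), and *Pvr*, CD155 (0.75, adjusted p = 0.0209). The median over the 8 was 0.46, against 0.03 over all genes tested, of which 14% rose and 25% were called. With paclitaxel added in this fraction, *Cd274*, which encodes PD-L1, rose (1.42, adjusted p = 0.0438), as did *Pvr* (0.84, adjusted p = 0.0472), and the other 6 were not called. In that comparison 2.19% of all genes tested rose. *Cd274* measured 3.17, 5.84 and 8.54 FPKM in JQ1 with paclitaxel and 9.23, 22.1 and 3.93 FPKM in the 3-drug group, against 1.62 and 1.78 FPKM in JQ1 and 2.20 and 2.88 FPKM in JQ1 with anti-PD-L1. *Lgals9* (-0.67, adjusted p = 0.01) and *Pvrl2* (-0.87, adjusted p = 0.0407) fell in JQ1 relative to vehicle, and *Pvrl2* fell in JQ1 with paclitaxel (-1.10, adjusted p = 0.00804). Among all genes tested, 9.68% fell in JQ1 and 17.6% were called in JQ1 with paclitaxel.

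In the CD45-positive fraction *Lgals9* was the only ligand gene of 9 called. It measured 61.2 and 65.6 FPKM in JQ1, 126 and 111 FPKM in JQ1 with anti-PD-L1, 64.5 and 48.0 FPKM in JQ1 with paclitaxel, 97.8 and 82.0 FPKM in the 3-drug group and 113 and 109 FPKM in vehicle. It fell in JQ1 with paclitaxel (-0.99 ± 0.19, adjusted p = 0.0267) and rose with anti-PD-L1 added (0.78 ± 0.14, adjusted p = 0.0483). Among all genes tested, 4.84% and 0.832% were called in these comparisons. *Havcr2* in the same libraries had differences of the same sign in these comparisons, without a call.

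Of related gene lists in the CD45-positive fraction, 1 of 15 core T cell genes was called in JQ1 against vehicle and rose, *Thy1* (1.25, adjusted p = 0.0397), with a list median of 1.76 against 0.00 over all genes tested. *Thy1*, which fibroblasts express as well, also rose in JQ1 with paclitaxel (1.12, adjusted p = 0.0264), where the list median was -0.08. None of 11 other costimulatory and inhibitory receptor genes was called in the 8 comparisons. Among all genes tested, 1.04% were called in JQ1, 4.84% in JQ1 with paclitaxel and 0.822% over all treated groups. Of 8 exhaustion and activation genes, *Irf4* rose in JQ1 (1.49, adjusted p = 0.0268), *Nfatc1* fell in JQ1 with paclitaxel (-1.59, adjusted p = 0.0237) and *Nr4a2* rose over all treated groups (1.42, adjusted p = 0.0477). Of 3 regulatory T cell genes other than *Foxp3*, *Lrrc32*, which encodes the anchor of latent TGF-beta on regulatory T cells, rose in JQ1 with paclitaxel (1.85, adjusted p = 0.0125), where the list median was -0.28 and *Foxp3* differed by -0.34 (adjusted p = 0.518). In that comparison 3 fibroblast genes tested had a median of 1.01, none called, and the summed level of 4 was 104 to 183 FPKM in JQ1 with paclitaxel and 56.6 to 87.8 FPKM in vehicle. The part of fibroblast content in the *Thy1* and *Lrrc32* levels was not tested.

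In the CD45-negative fraction, *Entpd1*, the ectonucleotidase CD39, fell in JQ1 (-1.18, adjusted p = 0.0031), in JQ1 with paclitaxel (-1.33, adjusted p = 0.000717) and over all treated groups (-0.72, adjusted p = 0.0162), and rose with anti-PD-L1 added (1.08, adjusted p = 0.000246). Among all genes tested, 14.8% were called in JQ1, 17.6% in JQ1 with paclitaxel and 7.37% over all treated groups. *Entpd1* and *Batf* (0.51, adjusted p = 0.0476) were the 2 exhaustion and activation genes of 7 tested that rose with anti-PD-L1 added. In the same comparison *Lck*, the kinase of the T cell receptor, rose (1.05, adjusted p = 0.0149), as 1 of 4 core T cell genes. With anti-PD-L1 added, 14% of all genes tested rose and 25% were called. The inhibitory receptor gene *Lair1* rose too (0.74, adjusted p = 0.038), as 1 of 4 other receptor genes, and so did *Lrrc32* (0.66, adjusted p = 0.0201). *Lrrc32* was the only gene of the regulatory T cell list tested, and averaged 2.02 FPKM here and 1.84 FPKM in the CD45-positive fraction. The next highest gene of that list here, *Ikzf2*, averaged 0.116 FPKM. The core T cell genes summed to 0.842 to 29.3 FPKM in this fraction, so T cell RNA was low. Which cells carried the RNA of *Entpd1*, *Batf*, *Lck*, *Lair1* and *Lrrc32* was not tested.

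The genes most like each member across the 10 CD45-positive libraries, by Pearson's correlation of log2(FPKM + 1), included T cell genes for some and not for others. *Icos* was closest to *Lef1* (0.97), *Ccr7* (0.97) and *Cd3d* (0.96), and *Ctla4* to *Rnps1* (0.96), *Cd3g* (0.95) and *Cyld* (0.95). *Havcr2* was closest to *Hdgf* (0.99), *Trpv2* (0.98) and *Slc25a20* (0.98). *Tnfrsf9* was closest to *Ncoa7* (0.91), *Mmp12* (0.90) and *Cd8a* (0.88), and *Tigit* to *Mmp12* (0.93), *Ncoa7* (0.91) and *Klrk1* (0.91). *Pdcd1* was closest to *Rad18* (0.93), *Cnbp* (0.91) and *Tnfsf13b* (0.90), *Tnfrsf4* to *Pdgfrl* (0.95), *Vgll4* (0.92) and *Alkbh4* (0.92), and *Foxp3* to *A530088E08Rik* (0.97), *Safb* (0.96) and *Tbp* (0.96). These are the highest of the correlations with all 10340 genes tested, taken over libraries that share group and depth.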

How the data were processed

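Both tables hold FPKM values that the authors deposited, 1 table for each fraction. Libraries were prepared with a low-input SMARTer kit and sequenced on a NextSeq 500, per the labels' protocols, and STAR 2.5.1b and the genome build mm9 are named in the submitters' processing notes. The program that computed FPKM, its length model and its strand setting are not given in the sources used. Symbols are in capitals in the files and are written here in mouse style.

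FPKM values are not counts, so no count model was used and total depth is unknown. Steps between low values gave relative depths, which spanned 0.629 to 1.72 in the CD45-positive and 0.547 to 1.79 in the CD45-negative libraries. For Pdcd1, Lag3, Icos and Foxp3 the values were whole multiples of 1 step, and read numbers are those multiples (the largest step that gave whole numbers, within a tolerance of 0.1 up to 30 reads). The shared step ratio between the fractions held for 1883 of 2139 genes. Counts of a few reads carry counting error beyond the spread given.

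Each fraction was fitted separately (limma 3.58.1, R 4.3.3, mean-variance trend) on log2(FPKM + 1), for genes that reached 1 FPKM in 2 or more libraries, with 5 groups sharing 1 spread and Benjamini-Hochberg adjustment over all genes tested. Fold changes on this scale understate changes of low genes. The fit was tried on simulated data with large changes in well-expressed genes, which does not cover the low levels of most members. Figures were drawn with matplotlib 3.10.9. Fractions were not tested against each other, since the tables were normalized separately. p-values measure the spread between tumours, and tumours of 1 code, read as 1 mouse, would not be independent animals.

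Every member is named. Fits with an unadjusted p under 0.05 are given singly. From each list, genes with an adjusted p under 0.05 are named. For likeness, the 3 genes of highest Pearson correlation are named. The members and lists were chosen with earlier results of these data known. Alternatives were the pseudocount, the filter, quantile normalization, array weights, relative depth as a covariate, 1 mean per mouse code, each library left out, and 2 cell content covariates added after the data were seen. Promoter windows for 7 of the 9 genes were matched by symbol in RefSeq (GRCm38.p6), a build other than that of the files, and serve for sequence alone.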

Additional observations from a re-analysis of the deposited data

Results flagged for a closer look

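In 1 treated group each, 2 genes lay on opposite sides of vehicle in the 2 fractions, with both libraries of that group beyond both vehicle libraries in each fraction. Havcr2 in JQ1 with anti-PD-L1 differed from vehicle by a mean of -7.84 FPKM in the CD45-positive fraction and by 1.64 FPKM in the CD45-negative fraction. Tigit in JQ1 differed by a mean of 0.917 FPKM in the CD45-positive fraction and by -1.05 FPKM in the CD45-negative fraction. The difference between the fractions was not tested for either gene, because the tables were normalized separately. The 2 cases come from 9 genes in 4 treated groups, and the share over all genes is not given. Groups of 2 libraries often separate from 2 vehicle libraries without any real difference. Tigit was also low, at or below 1.52 FPKM in all of these libraries.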

How the results depend on the processing

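No paired analysis was possible because the replicate numbers follow accession order and pair no samples across the treatment groups compared; tumour codes pair the fractions, which were not tested against each other since their tables were normalized separately. Anti-PD-L1 added in the CD45-negative fraction called 2 members under every alternative run (Havcr2 1.12 to 1.80, adjusted p 0.00013 to 0.0177; Tnfrsf9 0.88 to 1.25, adjusted p 0.000688 to 0.00968). In the CD45-positive fraction, JQ1 with paclitaxel called 1 member with no filter (Lag3), 1 with array weights (Havcr2) and 1 with the CD3 covariate (Havcr2), and all treated groups called 1 with no filter (Lag3), where the fits given called 0. In the CD45-negative fraction, JQ1 called 2 with no filter and 2 with a filter of 0.1 FPKM (Tigit beside Tnfrsf9), but 0 with relative depth as a covariate (Tnfrsf9 -0.78, adjusted p = 0.203) and 0 with 1 mean per mouse code (-0.998, adjusted p = 0.141). JQ1 with paclitaxel and all treated groups each called 1 with no filter and 1 with a filter of 0.1 FPKM (Tigit), the 3-drug group called 2 with array weights, and paclitaxel added called 0 with 1 mean per mouse code (0.88, adjusted p = 0.101). The interaction of the CD45-positive fraction reversed with the CD3 covariate to -0.35 for Pdcd1, -0.67 for Icos and -0.81 for Tnfrsf4. The causes were not tested.

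With 1 library left out, calls ranged from 0 to 1 in the CD45-positive fraction for JQ1 (Icos 2.07, adjusted p = 0.0417 without JQ1 replicate 2), JQ1 with paclitaxel (Havcr2, adjusted p 0.0151 to 0.0451 without either 3-drug or either JQ1 replicate) and anti-PD-L1 added (Havcr2 1.60, adjusted p = 0.0465 without 3-drug replicate 2). In the CD45-negative fraction they ranged from 0 to 1 for JQ1 (0 without vehicle replicate 1 or JQ1 replicate 1), JQ1 with paclitaxel (Havcr2, adjusted p = 0.0461 without 3-drug replicate 3), the 3-drug group (Havcr2 1.12, adjusted p = 0.0219 without 3-drug replicate 3; Tnfrsf9, adjusted p = 0.0462 without replicate 3 of JQ1 with paclitaxel) and paclitaxel added (0 without JQ1 replicate 1 or replicate 1 of JQ1 with anti-PD-L1). A lone remaining library was assumed to vary like the other groups. Among refits of differences given singly, 409 kept direction and side of the threshold, 13 passed it newly, 7 lost it and 3 reversed.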
